A study of Mus musculus with 4 samples.

Results

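The cells described here are the aortic smooth muscle cells that ranked highest for the sum of Dcn and Myh10 transcripts. Each kept cell received its percentile rank for Dcn and for Myh10 among the cells of its own library, both as UMIs (counted transcript molecules) per 10000, and both ranks were added. The top 15% of each library, 347, 474, 624 and 512 cells of WT 1, WT 2, KO 1 and KO 2, are called high cells, 1957 of 13049 kept cells in all. They were compared with the same number of low cells, the bottom 15% of the same ranking, and the cells between them are called middle cells. Dcn and Myh10 chose the cells, so their own levels are a description and were not tested.

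The mice, C57BL/6J, were 12 weeks old; their ascending aortas with the arch were digested in the cold and viable GFP-positive single cells were sorted. Control mice (WT, labelled GFPiSMC) carried Myh11-CreERT2, a tamoxifen-inducible Cre recombinase driven by the smooth muscle myosin promoter, and the mT/mG reporter, which switches from tdTomato to eGFP on recombination. Knockout mice (KO, labelled Tgfbr1/2iSMCKO) carried the same alleles with floxed Tgfbr1 and Tgfbr2. Both genotypes received tamoxifen for 5 days, at 4 weeks of age with 1 mg per day or at 11 weeks with 2 mg per day, and the course of each library is not given. There were 2 libraries per genotype, each from individual aortic segments. Nothing states how many mice each library holds, so p-values measure the spread between these samples. The Cre driver and the eGFP gate select for cells with a history of Myh11 expression, but this need not hold for every cell. KO high cells still held UMIs of tdTomato, and the low cells of KO 1 held myeloid markers at 71.4 CPM.

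Decorin, the product of Dcn, is a small leucine-rich proteoglycan that binds collagen fibrils and TGF-beta, and in the aorta it is best known from adventitial fibroblasts. Myh10 encodes non-muscle myosin heavy chain IIB, a motor of the cortical and stress-fibre cytoskeleton that is prominent in immature and in phenotypically modulated smooth muscle. Dmd encodes dystrophin, which links actin to the sarcolemma and the basement membrane, and Syne1 encodes nesprin-1, which links actin to the nuclear envelope. Mature contractile smooth muscle is defined by Myh11, Acta2 and Tagln. On GRCm38 the gene models lie on chromosome 10, 97479609 to 97518143 (Dcn), chromosome 11, 68691559 to 68816632 (Myh10), chromosome X, 82948870 to 85206141 (Dmd) and chromosome 10, 5020917 to 5551482 (Syne1). UMI counts come from 3′ tags and are given per gene, without a split by exon or UTR.

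The name "high in Dcn and Myh10" holds for Myh10 but for few cells in Dcn. Dcn had no UMI in 95.2%, 96.7%, 94.8% and 94.0% of the kept cells of WT 1, WT 2, KO 1 and KO 2. Of the high cells 64, 68, 136 and 139 held a Dcn UMI, or 18.4%, 14.3%, 21.8% and 27.1%, and no low cell did. Per cell, Dcn and Myh10 were close to uncorrelated (Spearman's rho from −0.0095 in WT 1 to 0.031 in KO 2, over the 2316 to 4162 cells of a library, which share that library and whose Dcn values are mostly 0). The high cells are therefore cells rich in Myh10, with a minority of Dcn-containing cells that entered at lower Myh10. Ranked by Myh10 alone, 81.8% to 88.4% of the same cells stood in the top 15%. After each cell was thinned to 3000 UMIs, a Dcn UMI remained in 6.05%, 5.49%, 8.33% and 12.3% of the high cells.

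Myh10 had a median of 13, 15, 9 and 8 UMIs per high cell in WT 1, WT 2, KO 1 and KO 2, against 1, 1, 0 and 0 per low cell. Summed over the cells of a class, it stood at 859.6 and 933 CPM in the high cells of WT 1 and WT 2 against 98 and 109.8 CPM in the low cells, and 602 and 537 against 37.2 and 34.7 CPM for KO 1 and KO 2. Since ranks were taken within a library, the KO high cells are the top of a lower range. At the threshold itself, the last cell inside and the first cell outside had no Dcn UMI and 7.43 and 7.42 Myh10 UMIs per 10000 in WT 1, 7.74 and 7.73 in WT 2, 5.18 and 5.18 in KO 1, and 4.95 and 4.95 in KO 2. Summed Dcn was 42, 33, 98 and 156 CPM in the high cells of WT 1, WT 2, KO 1 and KO 2.

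High cells were smooth muscle cells by their markers, and so were low cells. The 10 smooth muscle markers, led by Acta2, summed to 42163, 43573, 48392 and 45179.6 CPM in the high cells (WT 1, WT 2, KO 1, KO 2) and to 46989, 51090.4, 54547 and 52875 CPM in the low cells, and none of the 10 was at 0 in any class. The 16 fibroblast markers summed to 427, 388, 419 and 511 CPM in high and 259, 269, 239 and 207 CPM in low cells. Col14a1 led in the high cells, at 202, 192, 181 and 167 CPM of these sums, and Islr led in the low cells. Of the 12 fibroblast markers tested between high and low cells, 3 were higher in WT and 7 in KO and none was lower (medians 0.39 and 1.35, against 0.017 and 0.032 over all tested genes). Dpt, named after its values were seen, was called in KO (3.33 ± 0.48, adjusted p = 6.02e-06). It was near 0 in low cells and reached the tested genes through the high cells of KO. Dcn helped to choose the cells, so these fibroblast marker counts are a description and no independent result. Levels were low for several of them: Pi16 stood at 1.68, 1.38, 0.532 and 8.2 CPM, Dpt at 0.187, 0, 4.04 and 10.2 CPM and Clec3b at 0.187, 0.752, 0 and 2.2 CPM in the high cells. The 8 pericyte markers summed to 945, 977, 630 and 938 CPM in high and 678, 671, 489 and 590 CPM in low cells. The 9 cardiomyocyte markers, led by Tnnt2, summed to 345, 377, 719 and 724 CPM in high and 198, 153, 472 and 357 CPM in low cells. The 7 neural and Schwann markers, nearly all Ncam1, summed to 594, 611, 421 and 500 CPM in high and 450, 464, 348 and 378 CPM in low cells. The 13 endothelial markers summed to 177 to 229 CPM in high and 231 to 273 CPM in low cells, led by Fabp4, and Cdh5 was at 0 in the high cells of every library. The 15 myeloid markers summed to 0.776, 0.913, 9.78 and 1.04 CPM in high and to 3.77, 14.6, 71.4 and 2.31 CPM in low cells, with C1qa leading in the low cells of KO 1, and Ptprc and Adgre1 were at 0 in all 4 sums of high cells. Without cells that carried UMIs of at least 2 different rare markers of other types, 3848 genes were called in WT against 3825, 3279 in KO against 3321, and 15 against 28 for the difference between genotypes, and all 165 values of named genes kept direction and call. Leaving out cells with any 2 markers of other types removed nearly all cells, and no gene was called in WT or KO by edgeR (160 and 237 of 1729 at an unadjusted p under 0.05).

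Depth differed a little between the classes. Median UMIs per cell were 15341, 15968.5, 14284 and 15113.5 in the high and 13816, 14125.5, 13531 and 14062 in the low cells of WT 1, WT 2, KO 1 and KO 2. After every cell was thinned to 3000 UMIs, the median number of genes was 1460, 1475.5, 1455 and 1468.5 in high against 1406, 1398.5, 1383 and 1391 in low cells. The mitochondrial share was alike, 3.66% to 4.67% in high and 3.74% to 4.50% in low cells. Among the kept cells, 17 barcodes occurred in more than 1 library. CPM is the UMI count of a gene summed over a class and scaled to the class total after TMM (middle cells and marker sums without TMM, and high cells split by Dcn with the factor of all high cells), and log2 differences are high minus low with their SE, from 1 edgeR quasi-likelihood fit with library as a block.

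**Figure D1:**
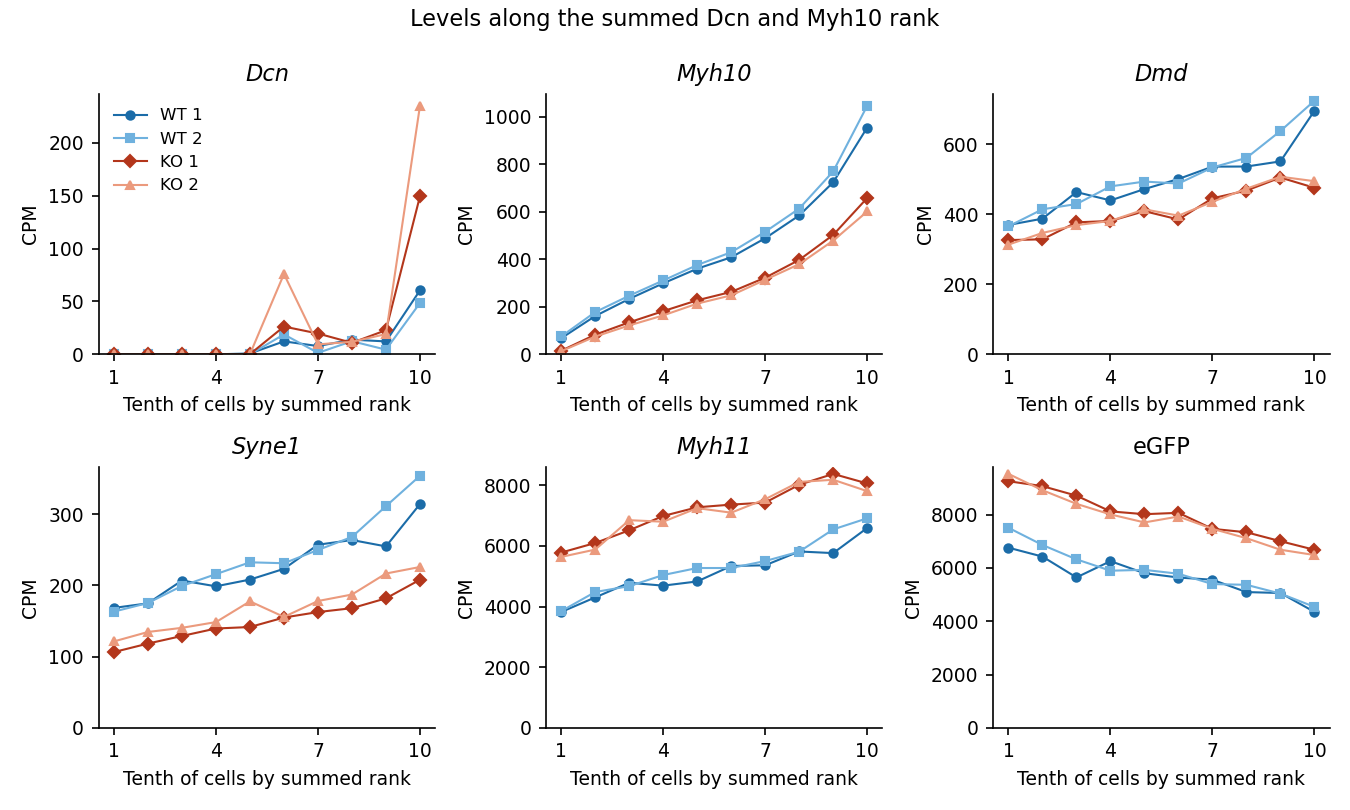
Level in CPM (y axis, from 0) of 6 genes in 10 equal bins of the cells of each library ordered by the summed rank of Dcn and Myh10 (x axis, 10 is the highest), with 1 line per library. Myh10 rises by construction and Dcn is highest in the last bin, with a smaller peak in bin 6 of WT 2, KO 1 and KO 2; Dmd, Syne1 and Myh11 rise and eGFP falls over the whole range of the rank rather than at its end alone, except that Dmd and Myh11 are lower in the last than in the previous bin of both KO libraries, with WT above KO for Dmd and Syne1 and KO above WT for Myh11 and eGFP.

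The difference between high and low cells was broad and small in size. In WT 1801 of 12246 tested genes were higher (14.7%) and 2024 lower (16.5%) in the high cells, 31.2% in all. In KO 1662 were higher (13.6%) and 1659 lower (13.5%), 27.1% in all. These shares are the background for the high against low counts of every gene list below. The median size of a called difference was 0.42 in WT and 0.36 in KO on the log2 scale, and 102 higher and 53 lower genes in WT and 133 and 31 in KO differed at least 2-fold. Of the called genes 2451 were called in both genotypes with the same sign, 64.1% of the WT calls and 73.8% of the KO calls, and 6 with opposite signs. The libraries of both genotypes are different ones, and the log2 differences correlated across genes (Spearman's rho 0.645 over 12246 genes, which are not independent replicates).

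The number of called genes depended on the ranking of cells. With the ranks taken on cells thinned to 3000 UMIs, 47.4% to 51.3% of the high cells were the same. Of the low cells only 27.5% (KO 2) to 37.8% (WT 1) were the same, so the low class was the less stable one. With these ranks 1832 genes were called in WT and 1160 in KO. Ranked by Dcn alone, 60.2% to 78.3% of the top cells held no Dcn UMI, and 58 and 387 genes were called. Ranked by Myh10 alone, 4112 and 3671 were called. Leaving out WT 2 lowered the WT count to 1656, and leaving out KO 1 or KO 2 lowered the KO count to 2011 or 1968.

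The leading shared rises included genes of matrix, basement membrane and cytoskeleton. Among genes with at least 20 CPM on average, they are the 12 with the largest differences that went the same way in all 4 libraries, and 8.93% of all tested genes were called higher in both genotypes. Gpc3, a cell-surface heparan sulfate proteoglycan, stood at 52.6 and 46.5 CPM in the high cells of WT 1 and WT 2 against 26.5 and 17.8 CPM in the low cells, and 45.1 and 94.4 against 22.4 and 46.8 CPM for KO 1 and KO 2, a log2 difference of 1.19 ± 0.11 in WT (adjusted p = 1.41e-08) and 1.01 ± 0.091 in KO (adjusted p = 7.61e-09). High cells exceeded low cells in each library, but the low cells of KO 2 were level with the high cells of WT 2 and KO 1. Ltbp2, a latent TGF-beta binding protein of microfibrils, stood at 86.4 and 97.8 CPM in the high cells of WT 1 and WT 2 against 41.7 and 51.8 CPM in the low cells, and 29.9 and 51.7 against 13.2 and 15.5 CPM for KO 1 and KO 2 (0.97 ± 0.093 and 1.48 ± 0.12). Here the high cells of both KO libraries were at or below the low cells of WT 2, and both KO low values were the lowest of the 8. Col14a1, a fibril-associated collagen, stood at 194 and 185 CPM in the high cells of WT 1 and WT 2 against 94.5 and 104 CPM in the low cells, and 175 and 157 against 74.1 and 69.2 CPM for KO 1 and KO 2 (0.92 ± 0.068 and 1.21 ± 0.068), and all 4 high values lay above all 4 low values.

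Rgs5, a regulator of G-protein signalling known from pericytes and smooth muscle, stood at 369.8 and 389 CPM in the high cells of WT 1 and WT 2 against 203 and 206 CPM in the low cells, and 166 and 400.2 against 88.5 and 181 CPM for KO 1 and KO 2 (0.89 ± 0.060 and 1.04 ± 0.062). KO 1 was low in both classes, and its high cells lay below the low cells of the other 3 libraries. Lamc3, a laminin chain, stood at 87.7, 93.7, 92.7 and 127 CPM in high against 38.7, 42.3, 50.8 and 60.3 CPM in low cells of WT 1, WT 2, KO 1 and KO 2, with no overlap. Tnnt2, cardiac troponin T, stood at 256, 274, 587 and 613 CPM in high against 151, 117, 413 and 270.4 CPM in low cells, and KO low cells were above WT high cells or level with them. Vcan (versican, a large proteoglycan), Uaca (an apoptosome-linked ankyrin-repeat protein), Sphkap (an anchor of protein kinase A), Adamtsl1 (an ADAMTS-like matrix protein) and Lama2 (laminin alpha-2, a ligand of dystroglycan) differed by 0.89, 0.97, 1.23, 0.75 and 0.74 in WT and by 0.86, 0.83, 0.76, 1.24 and 0.92 in KO. Syne1 completes the 12. Without WT 2, Lama2 was no longer called in WT (0.64, adjusted p = 0.0982).

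The 12 leading shared falls included small LIM-domain proteins, enzymes, a keratin and a lectin, and 11.1% of all tested genes were called lower in both genotypes. Crip1, a small LIM-domain protein, stood at 1585 and 1363 CPM in the high cells of WT 1 and WT 2 against 2905 and 2821 CPM in the low cells, and 941 and 714 against 1484 and 1305 CPM for KO 1 and KO 2 (−0.96 ± 0.049 and −0.76 ± 0.050). Within each genotype both high values lay below both low values. Ckb, the brain-type creatine kinase, stood at 326, 312, 535 and 495 CPM in high against 544, 601, 908 and 819.8 CPM in low cells of WT 1, WT 2, KO 1 and KO 2. Krt18, keratin 18, which immature and stressed smooth muscle can express, stood at 32.1, 38.4, 36 and 27.5 CPM in high against 59.5, 74.3, 92.1 and 69 CPM in low cells, with no overlap between the classes. Tesc, a calcium-binding regulator of sodium-proton exchange, differed by −1.08 in WT and −1.04 in KO.

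Lgals3, galectin-3, a lectin used as a marker of modulated smooth muscle and macrophages, was also lower, at 20, 23.2, 42.6 and 44.3 CPM in high against 90.6, 63.1, 73 and 72.8 CPM in low cells. Ethe1 and Alkbh7, both mitochondrial enzymes, differed by −0.81 and −0.79 in WT and by −0.74 and −0.72 in KO. Rgs2, an inhibitor of Gq signalling, differed by −0.71 in WT and −1.02 in KO, Gsto1, a glutathione transferase, by −0.67 in WT and −0.64 in KO, and Glipr1 by −0.63 in WT and −0.66 in KO. Pdlim4, an actin-bound LIM protein, differed by −0.70 in WT and −0.63 in KO, and Aimp2, a scaffold of aminoacyl-tRNA synthetases, by −0.63 in WT and −0.78 in KO. Without WT 2, Rgs2, Gsto1 and Aimp2 lost their call in WT (Rgs2 −0.49, adjusted p = 0.174, Gsto1 −0.39, adjusted p = 0.224, Aimp2 −0.42, adjusted p = 0.119).

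**Figure D2:**
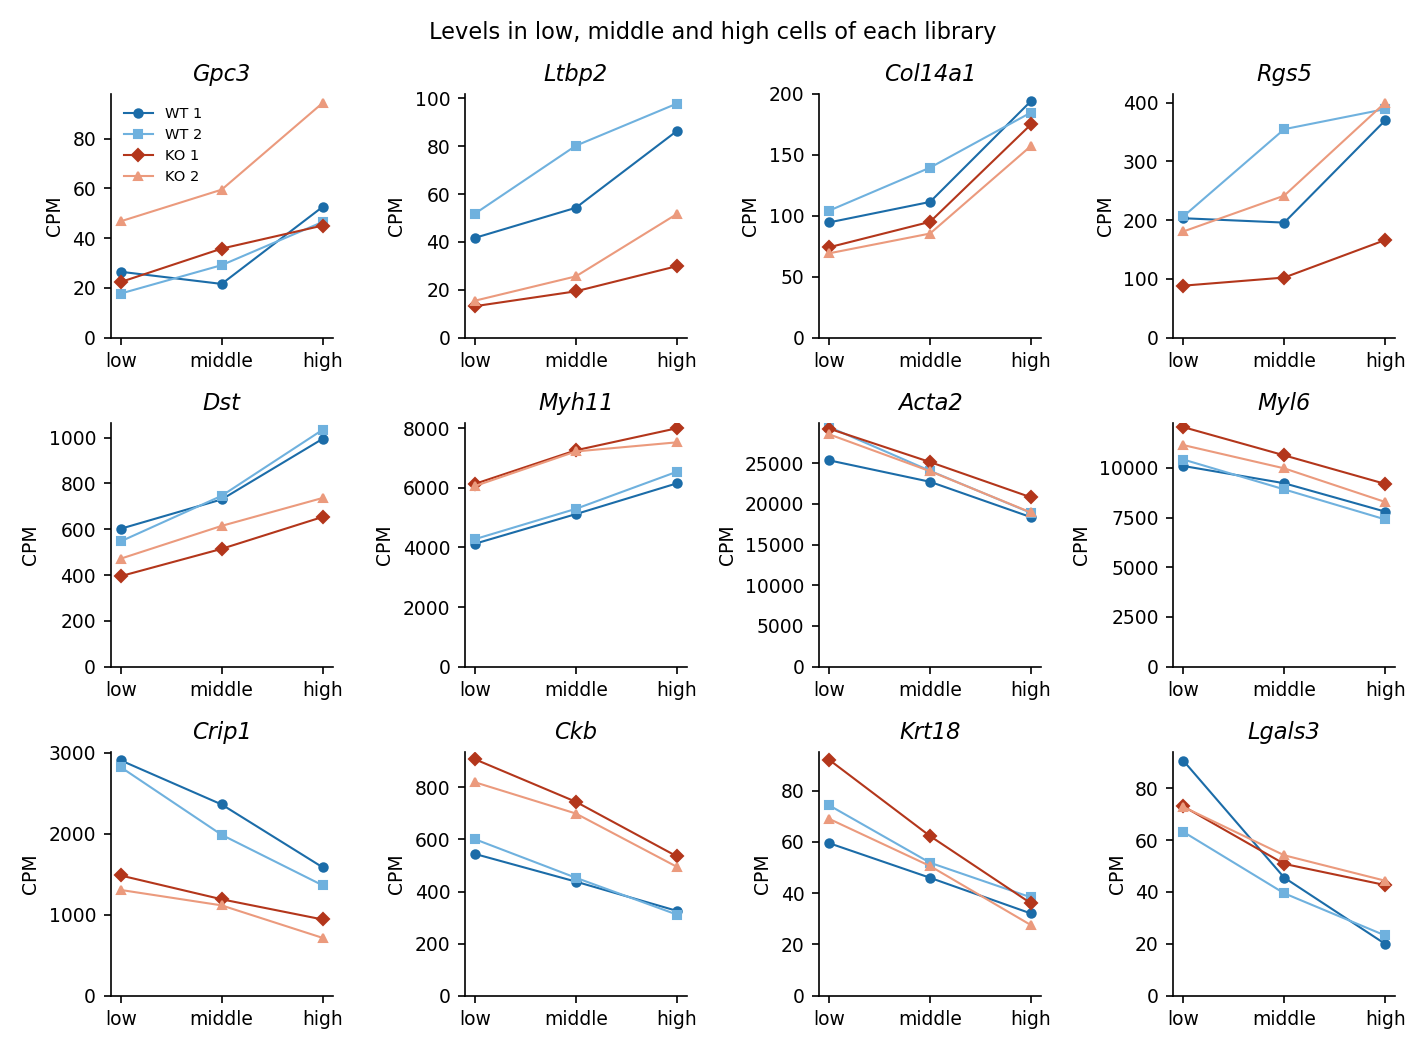
Level in CPM (y axis, from 0) of 12 genes in the low, middle and high cells of each library (x axis), with 1 line per library and no error bars because each point is 1 sum of cells. Gpc3, Ltbp2, Col14a1, Rgs5, Dst and Myh11 are higher and Acta2, Myl6, Crip1, Ckb, Krt18 and Lgals3 lower in the high than in the low cells of all 4 libraries, while middle cells lie between them except for Gpc3 and Rgs5 in WT 1.

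Linkers between actin, membrane and nucleus were higher in the high cells. Dmd stood at 624 and 664 CPM in the high cells of WT 1 and WT 2 against 383 and 399.8 CPM in the low cells, and 467 and 473 against 349 and 343 CPM for KO 1 and KO 2 (0.72 ± 0.049, adjusted p = 2.93e-11 in WT and 0.44 ± 0.049, adjusted p = 1.87e-07 in KO). Syne1 stood at 282 and 333 CPM in the high cells of WT 1 and WT 2 against 172 and 171 CPM in the low cells, and 193 and 215 against 118 and 127 CPM for KO 1 and KO 2 (0.85 ± 0.063 and 0.74 ± 0.064). No high value of either gene fell within its low values. Both genes were known from earlier results to be high in these cells, so their difference is no independent result. Per cell the classes overlapped: 81.0%, 81.9%, 69.9% and 74.2% of high cells of WT 1, WT 2, KO 1 and KO 2 exceeded the median low cell of their library for Dmd, and 74.6%, 80.8%, 74.4% and 74.4% for Syne1. Ranked by Dcn alone, neither gene was higher in KO (−0.077, adjusted p = 0.409 for Dmd and −0.0069, adjusted p = 0.985 for Syne1). Nor was Syne1 in WT (−0.041, adjusted p = 0.925), and the WT difference of Dmd fell as low as 0.0083 over the settings. In the Dcn ranking 60.2% to 78.3% of the top cells held no Dcn UMI, so it compares few cells with Dcn.

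Of the 14 dystrophin complex genes, 6 were higher and 4 lower in WT and 5 higher and 4 lower in KO (medians 0.061 and 0.054, against 0.017 and 0.032 over all tested genes). Dmd, its autosomal homologue Utrn (0.64 in WT and 0.45 in KO), dystroglycan Dag1 (0.21 in WT and 0.28 in KO), delta-sarcoglycan Sgcd (0.30 in WT and 0.21 in KO) and beta-1-syntrophin Sntb1 (0.47 in WT and 0.48 in KO) were higher in both genotypes. Beta-sarcoglycan Sgcb (−0.34 in WT and −0.23 in KO) was lower in both, so members of the same membrane complex moved in opposite directions. Dag1, Sgcd, Sntb1 and Sgcb were named after their values were seen. Of 15 nuclear envelope genes 5 were higher and 1 lower in WT and 7 and 2 in KO. Syne2, the gene of nesprin-2, stood at 155, 156, 170.5 and 183 CPM in high against 93.2, 98, 117 and 118 CPM in low cells, and Lmna, which encodes the A-type lamins, differed by −0.22 in WT and −0.25 in KO. Without WT 2 the difference in Lmna was not called in WT (−0.15, adjusted p = 0.159).

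Giant cytoskeletal linkers, which tie actin, intermediate filaments and microtubules to junctions and membranes, had 15 of 19 tested members higher and none lower in WT and 14 higher and 1 lower in KO. Their median was 0.54 in WT and 0.41 in KO. Dst, a plakin, stood at 995 and 1034 CPM in the high cells of WT 1 and WT 2 against 602 and 547 CPM in the low cells, and 654 and 737 against 395 and 472 CPM for KO 1 and KO 2 (0.82 ± 0.050 and 0.68 ± 0.050). Macf1, a plakin that crosslinks microtubules and actin, differed by 0.87 in WT and 0.61 in KO, and the beta-spectrin gene Sptbn1 by 0.69 in WT and 0.74 in KO. All 4 high values of Dst lay above all 4 low values, although KO 1 high cells were close to WT 1 low cells.

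Among the myosins and actin regulators, 11 of 18 tested genes were higher and 5 lower in WT, and 7 higher and 4 lower in KO. Myh9, the other major non-muscle myosin heavy chain, named after its values were seen, stood at 117, 116, 87 and 99.5 CPM in high against 77.1, 70.5, 54.4 and 48.5 CPM in low cells of WT 1, WT 2, KO 1 and KO 2. Myh11 stood at 6149.9 and 6539 CPM in the high cells of WT 1 and WT 2 against 4126 and 4278 CPM in the low cells, and 7999 and 7527 against 6134 and 6061 CPM for KO 1 and KO 2 (0.59 ± 0.036 in WT and 0.35 ± 0.036 in KO). In every library the smooth muscle myosin gene was thus higher in the cells rich in the non-muscle myosin gene. Ranked by Dcn alone, Myh11 was called lower in KO (−0.15, adjusted p = 7.44e-06). Myosin light chains went the other way: Myl6 stood at 7798, 7406, 9192 and 8283 CPM in high against 10093, 10418, 12047 and 11144 CPM in low cells, and Myl9 differed by −0.37 in WT and −0.38 in KO.

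Contractile genes split by direction, 9 higher and 11 lower of 30 in WT and 8 and 13 in KO (medians 0.084 and −0.030). Of those called the same way in both genotypes, Cald1, Itga8, Myh11, Mylk, Myocd and Synpo2 were higher, and Acta2, Actg2, Cnn1, Csrp1, Mustn1, Myl6, Myl9, Pdlim3, Pdlim7, Tagln and Tpm2 were lower. The 6 higher genes span 93.4 to 257 kb of genome and the 11 lower genes 2.41 to 34.1 kb. Acta2, smooth muscle actin, stood at 18368 and 18892 CPM in the high cells of WT 1 and WT 2 against 25349.8 and 29443 CPM in the low cells, and 20806 and 18944 against 29243 and 28544 CPM for KO 1 and KO 2 (−0.55 ± 0.036 and −0.54 ± 0.036), and all 4 high values lay below all 4 low values. Tagln, transgelin, chosen after its values were seen, stood at 11164, 11363, 12656 and 10938 CPM in high against 14411, 14823, 15929.5 and 14524 CPM in low cells, Csrp1, a LIM-domain cofactor of the contractile program, at 1011, 1082, 1772 and 1767 CPM in high against 1463, 1569, 2477 and 2544 CPM in low cells, and Tpm2, a tropomyosin, differed by −0.51 in WT and −0.53 in KO. Myocd, the coactivator that drives these genes, was also chosen after its values were seen and stood at 97.9, 82.9, 85.3 and 107 CPM in high against 65.4, 45.9, 62.1 and 86.6 CPM in low cells. The eGFP reporter, which marks recombination, was lower too, at 4414, 4486, 6537 and 6070.4 CPM in high against 6800.1, 7646, 9656 and 9563 CPM in low cells (−0.70 ± 0.039 and −0.61 ± 0.039).

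Collagen and basement membrane genes that passed the test were all higher in the high cells. Of 12 tested fibrillar and associated collagens 8 were higher in WT and 10 in KO with none lower (medians 0.28 and 0.35). Between high cells with and without a Dcn UMI, 2 of the 12 were higher in WT and 8 in KO. Dcn helped to choose the cells, so the collagen counts are a description and no independent result. Besides Col14a1, Col6a1, a chain of microfibrillar collagen VI, stood at 222, 230.4, 234 and 244 CPM in high against 167, 186, 187 and 183 CPM in low cells of WT 1, WT 2, KO 1 and KO 2. Of 16 basement membrane genes 11 were higher in WT and 7 in KO with none lower (medians 0.27 and 0.19). Col4a6, a chain of a collagen IV network found in smooth muscle, stood at 181 and 219 CPM in the high cells of WT 1 and WT 2 against 117 and 117 CPM in the low cells, and 175 and 162 against 117 and 98 CPM for KO 1 and KO 2 (0.78 ± 0.070 and 0.65 ± 0.067), with no overlap between classes. Its chain partner Col4a5 differed by 0.54 in WT and 0.64 in KO.

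Elastic fibre genes had 8 higher and 3 lower of 18 in WT and 11 higher and 1 lower in KO (medians 0.14 and 0.38). Fbn1, fibrillin-1, the backbone of microfibrils, stood at 206, 214, 165 and 193 CPM in high against 164, 172, 123 and 131 CPM in low cells. Ltbp1, which anchors latent TGF-beta to those microfibrils, stood at 552, 538, 281 and 372 CPM in high against 393, 383, 214 and 249 CPM in low cells. Of 9 tested small leucine-rich proteoglycans, the family of decorin, 2 were higher in WT and 5 in KO and none was lower (medians 0.016 and 0.55, against 0.017 and 0.032 over all tested genes). Between high cells with and without a Dcn UMI, 1 of 8 was higher in WT and 6 in KO. For elastic fibre genes it was 2 of 18 in WT and 10 in KO. Dcn helped to choose the cells, so the counts of both lists are a description and no independent result. Ecm2 stood at 352, 344, 143 and 157 CPM in high against 262, 271, 100.3 and 103 CPM in low cells, while Ogn, osteoglycin, differed by 0.057 in WT and 0.18 in KO, which passed the test in KO alone; the difference between genotypes did not pass (0.12 ± 0.064, adjusted p = 0.712), and Ogn lost its call in KO without KO 2 (0.13, adjusted p = 0.239).

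The targeted receptors were counted in every class. Tgfbr1 stood at 87.8, 92.1, 73.9 and 82.5 CPM in high against 76.7, 78.1, 67.2 and 70.8 CPM in low cells of WT 1, WT 2, KO 1 and KO 2, with a difference that passed the test in WT (0.22 ± 0.074, adjusted p = 0.0253) and not in KO (0.18 ± 0.071, adjusted p = 0.0624). That call was lost without WT 1 (0.25, adjusted p = 0.064) and without WT 2 (0.22, adjusted p = 0.206). Tgfbr2 was measured at 65.1, 55.6, 53.6 and 51 CPM in high against 45.8, 39.9, 41.5 and 42.5 CPM in low cells and was called in both (0.49 ± 0.091 and 0.32 ± 0.085), in KO not without KO 1 (0.27, adjusted p = 0.186). Within the high cells, KO and WT differed by −0.22 ± 0.090 for Tgfbr1 and −0.21 ± 0.11 for Tgfbr2 (adjusted p = 0.126 and 0.209). Which exons were floxed is not given here, and 3′ tags outside a deleted part check nothing about the deletion.

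Of 17 TGF-beta and BMP ligands, receptors and SMADs 9 were higher and 1 lower in WT and 7 and 1 in KO (medians 0.31 and 0.24). Bmpr2, the type II BMP receptor, stood at 128, 117, 97 and 114 CPM in high against 95.6, 82.9, 73.6 and 89.1 CPM in low cells. TGF-beta target genes had 6 higher and 3 lower of 16 in WT and 5 and 1 in KO. Nox4, an NADPH oxidase induced by TGF-beta, stood at 257, 245, 37.5 and 52.4 CPM in high against 211, 185, 31.2 and 34.1 CPM in low cells, so the KO cells of both classes were far below the WT cells, and it lost its call in KO without KO 2 (0.27, adjusted p = 0.187). Ski, a repressor of SMAD signalling, differed by 0.41 in WT and 0.30 in KO.

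Genes of energy metabolism and translation were lower. Of 25 oxidative phosphorylation genes 23 were lower in each genotype and none higher (medians −0.44 and −0.39), and of 30 cytosolic ribosomal protein genes 30 were lower in WT and 29 in KO (medians −0.37 and −0.31). Many ribosomal protein genes have near-identical copies, between which reads can be split. Cox4i1, a subunit of cytochrome c oxidase, stood at 753, 775, 969 and 859 CPM in high against 1077, 1154, 1306 and 1229 CPM in low cells (WT 1, WT 2, KO 1, KO 2), and Rps2, a small-subunit ribosomal protein, at 1461, 1502, 2025 and 1737 CPM in high against 2033, 2066, 2566 and 2315 CPM in low cells. Chromatin and RNA processing regulators moved the other way, 17 of 24 higher in WT and 15 in KO with none lower (medians 0.30 and 0.23). Kmt2a, a histone methyltransferase, stood at 138, 139.8, 118 and 139 CPM in high against 81.5, 77.8, 85 and 97.2 CPM in low cells, Chd4, a nucleosome remodeller, differed by 0.51 in WT and 0.37 in KO and Hnrnpu, a nuclear scaffold protein, by 0.49 in WT and 0.41 in KO.

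RNAs that stay in the nucleus were higher as well, 4 of 6 in each genotype. Malat1 stood at 41459.7 and 43712 CPM in the high cells of WT 1 and WT 2 against 32001 and 33286 CPM in the low cells, and 43266 and 42709 against 36351 and 38309 CPM for KO 1 and KO 2 (0.38 ± 0.030 and 0.20 ± 0.030), and the imprinted Kcnq1ot1 at 139.9, 177, 144 and 144 CPM in high against 81, 114, 109 and 85.8 CPM in low cells. Immediate early and dissociation stress genes were lower on balance, 4 higher and 11 lower of 31 in WT and 1 and 18 in KO (medians −0.17 and −0.24). Hspb1, a small heat shock protein, stood at 1515, 1406, 1591 and 2020.2 CPM in high against 2561, 2049, 2188 and 3229.6 CPM in low cells, and Hspa1a, the inducible Hsp70, at 169.5, 243, 188 and 311 CPM in high against 222, 382, 264 and 533 CPM in low cells.

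Membrane and signalling lists gave mixed counts. Channels and vasoactive receptors had 8 higher and 2 lower of 21 in WT and 9 and 3 in KO, among them the calcium pump gene Atp2a2 (0.42 in WT and 0.29 in KO) and the ryanodine receptor gene Ryr2 (0.72 in WT and 0.64 in KO). Integrin and focal adhesion genes had 9 higher and 5 lower of 26 in WT and 5 and 5 in KO. Their leading genes Itgb1 (0.32 in WT and 0.28 in KO) and Itga8 (0.38 in WT and 0.39 in KO) encode both chains of the integrin alpha-8 beta-1 of smooth muscle. Modulated smooth muscle genes had 3 higher and 2 lower of 12 in each genotype, and interferon-stimulated genes had none higher and 5 of 24 lower in WT and 7 in KO. In these 4 lists, in that order, the medians were 0.20, 0.079, 0.32 and −0.31 in WT and 0.28, 0.039, 0.063 and −0.15 in KO.

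Transcription factors of the aortic regions had 6 higher and 1 lower of 23 in WT and 7 and 1 in KO (medians 0.14 and 0.16). Over all tested genes 14.7% were higher and 16.5% lower in WT, and 13.6% and 13.5% in KO. With few genes per list, counts near these shares are no result about a list. Meis2, a homeobox factor, stood at 102, 101, 127 and 128 CPM in high against 72.1, 65.3, 99.7 and 90.8 CPM in low cells (WT 1, WT 2, KO 1, KO 2), and Nr2f2, a nuclear receptor, differed by 0.32 in WT and 0.59 in KO, which was not called in WT without WT 1 (0.26, adjusted p = 0.171). Wnt and IGF genes had 7 higher and 2 lower of 17 in WT and 10 and 1 in KO (medians 0.32 and 0.29). Igfbp7, an IGF-binding protein, stood at 5146, 5606, 4172 and 3451 CPM in high against 6876, 7638, 4739 and 4090.3 CPM in low cells, while Sfrp2, a secreted Wnt modulator, differed by 0.42 in WT and 0.29 in KO and was not called in KO without KO 2 (0.12, adjusted p = 0.354). Notch genes had none higher and 3 lower of 10 in WT and 1 and 2 in KO (medians −0.13 and −0.052). Notch3, the receptor of arterial smooth muscle, differed by −0.44 in WT and −0.34 in KO, but not past the test in WT without WT 2 (−0.25, adjusted p = 0.395) or in KO without KO 1 (−0.39, adjusted p = 0.0945) or KO 2 (−0.30, adjusted p = 0.173).

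Endoplasmic reticulum chaperone and stress genes had 5 higher and 5 lower of 18 in WT and 5 and 1 in KO. Hyou1, a chaperone, differed by 0.68 in WT and 0.75 in KO and was not called in WT without WT 2 (0.52, adjusted p = 0.0515). Inflammatory and complement genes had 3 higher and 2 lower of 12 in WT and 7 and 2 in KO. Nfkbia, the inhibitor of NF-kappa-B, stood at 75.2, 75, 68.5 and 67.7 CPM in high against 97.3, 106, 108 and 87.5 CPM in low cells of WT 1, WT 2, KO 1 and KO 2. Cxcl12 was higher (0.39 in WT and 0.50 in KO), in WT not without WT 2 (0.28, adjusted p = 0.334). Proteoglycan and matricellular genes had 4 higher and 6 lower of 19 in WT and 4 and 1 in KO, chondrogenic and osteogenic genes 5 and 1 of 15 in WT and 3 and 0 in KO, and cell cycle genes 2 and 2 of 8 in WT and 2 and 0 in KO. From the chaperone list on, in the order given, the medians were −0.043, 0.0086, −0.010, 0.26 and −0.33 in WT and 0.017, 0.37, −0.015, 0.26 and −0.082 in KO. The shares over all tested genes were 14.7% higher and 16.5% lower in WT, and 13.6% and 13.5% in KO.

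The direction of a difference went with the genomic span of the gene. Span was no input of the ranking, but the ranking rested mainly on Myh10, itself a long gene. The part of that choice in the relation with span was not tested. Genes under 10 kb had a median log2 difference of −0.24 in WT and −0.17 in KO, and 2.59% were higher and 33.8% lower in WT. The median rose through 0.20 and 0.18 at 50 to 100 kb to 0.35 and 0.30 at 200 kb and more, where 44.1% were higher and 2.27% lower in WT. The 1094 genes called higher in both genotypes had a median span of 80.6 kb and the 1357 called lower in both 8.16 kb, against 23.5 kb over all tested genes. Myh10 itself spans 125 kb, Dmd 2257 kb and Syne1 531 kb, while Dcn spans 38.5 kb. Span, the nuclear RNAs and the short ribosomal and mitochondrial genes moved with the rank together, and the part of each in the others was not tested. Malat1, at 6.98 kb, was higher in spite of its length. Whether reads in introns were counted is not given in the sources used here.

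**Figure D3:**
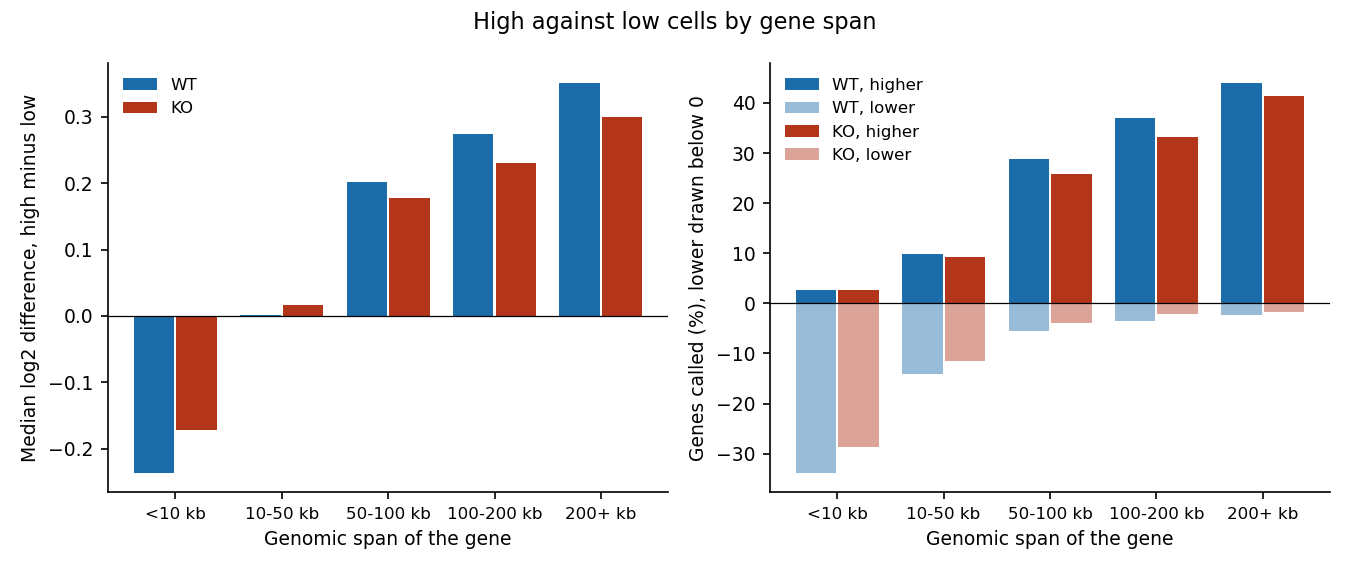
Median log2 difference, high minus low cells (left), and share of genes called higher, or called lower and drawn below 0 (right), by genomic span of the gene in 5 classes of 3168, 5664, 1754, 1038 and 617 genes (x axis), in WT (blue) and KO (red), without error bars. The median moves from −0.24 and −0.17 under 10 kb to 0.35 and 0.30 at 200 kb and more.

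Few genes differed in their high minus low difference between the genotypes: 28 of 12246 passed the test of that difference (0.229%), 21 of them more positive in KO (0.171%) and 7 more negative (0.0572%). Eln, elastin, stood at 2831 and 2882 CPM in the high cells of WT 1 and WT 2 against 2511 and 2553 CPM in the low cells, and 533 and 366 against 289 and 183 CPM for KO 1 and KO 2. High cells thus held little more Eln than low cells in WT (0.17 ± 0.042) and nearly 2-fold more in KO (0.94 ± 0.047), where the level was a fraction of that in WT, and the difference of 0.76 ± 0.063 passed (adjusted p = 3.56e-08).

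Pcolce2, an enhancer of procollagen processing, stood at 35.4, 55.1, 146 and 147 CPM in high against 55.4, 70.1, 102 and 109.7 CPM in low cells, lower in high cells in WT and higher in KO (difference 0.93 ± 0.11). Klf2, a flow-responsive transcription factor, stood at 147, 130.2, 60.4 and 52.6 CPM in high against 187, 134, 37.6 and 36 CPM in low cells (0.81 ± 0.12), and Smoc1, a calcium-binding matricellular protein, differed by −0.25 in WT and 0.43 in KO. Fos, an immediate early factor, stood at 327, 382, 39.6 and 43.1 CPM in high against 278, 312, 55.3 and 56.1 CPM in low cells (−0.70 ± 0.10), higher in high cells in WT and lower in KO. Its difference between genotypes turned to 0.11, adjusted p = 0.915 with classes of 20%, and to 0.49, adjusted p = 0.00823 ranked by Dcn alone, which was called in the opposite direction. Sparcl1, a matricellular protein, differed by 0.00081 in WT and −0.45 in KO. Lgals3 fell less in KO than in WT (1.02 ± 0.16, adjusted p = 0.000643), a call lost without WT 1 (0.67, adjusted p = 0.0742). Without KO 1 the count was 56. Ranked over cells without a Dcn UMI, the count fell to 5, and Klf2 (0.21, adjusted p = 0.903), Pcolce2 (0.63, adjusted p = 0.0599), Smoc1 (0.56, adjusted p = 0.0587) and Sparcl1 (−0.26, adjusted p = 0.663) were no longer called.

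**Figure D4:**
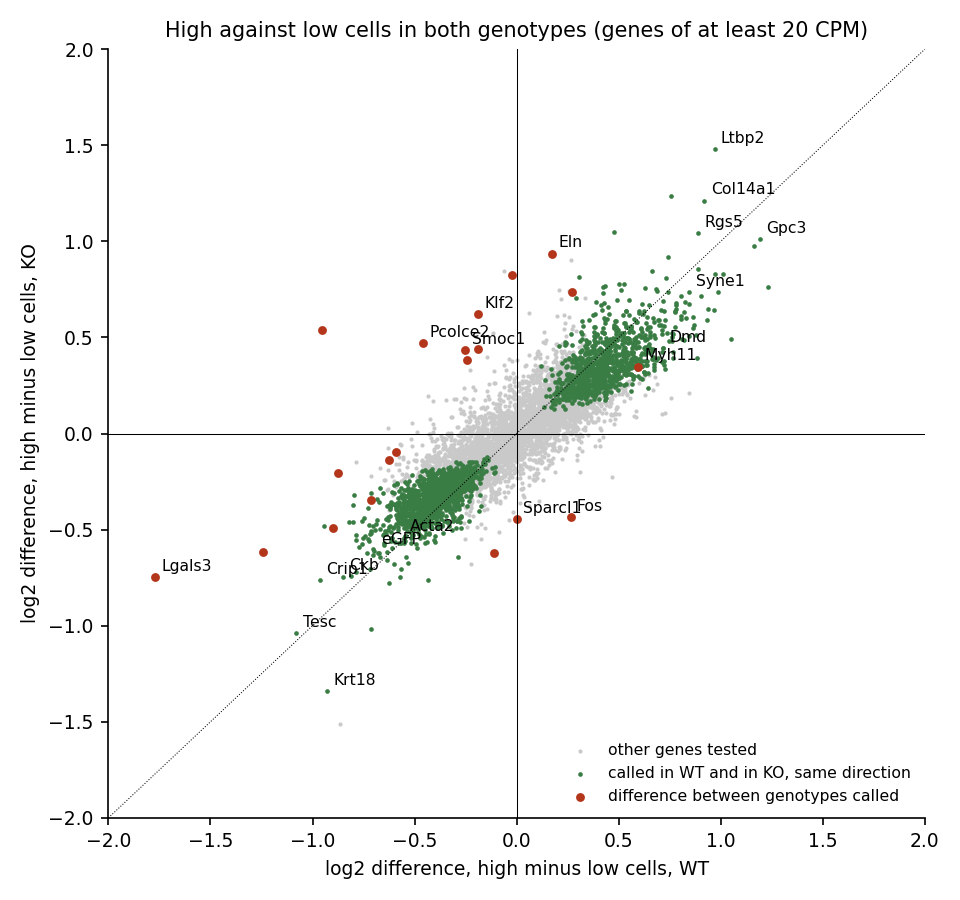
Log2 difference between high and low cells in WT (x axis) and KO (y axis) for tested genes averaging 20 CPM or more, with 1 point per gene: green for genes called in both genotypes with the same sign, red for genes whose difference between genotypes was called, grey for the others, and the dotted line for equal values. Most green points lie near the dotted line, while Eln, Klf2 and Pcolce2 lie above it and Fos and Sparcl1 below it; 1 gene lies outside the axes.

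Dcn was concentrated in few cells. Over all kept cells, 111, 103, 216 and 204 cells of WT 1, WT 2, KO 1 and KO 2 held Dcn, 54, 53, 93 and 80 of them with 1 UMI. Cells with at least 5 UMIs numbered 24, 26, 54 and 59 and held 61.1%, 74.8%, 79.8% and 85.8% of all Dcn UMIs, with up to 51, 33, 177 and 213 in 1 cell. Cells with UMIs of at least 5 endothelial markers were looked at for a level of free RNA. They held Dcn in 0 of 7, 0 of 8, 1 of 12 and 3 of 12 cells (exact binomial 95% interval 5.49% to 57.2% in KO 2, and the median depth was 15439 to 19605 UMIs over the libraries). Among them, 1 cell in KO 1 (5 UMIs) and 2 cells in KO 2 (up to 17 UMIs) held at least 5 Dcn UMIs. With so few such cells, some of them rich in Dcn, they give no clean level for free RNA. The share of cells with a single Dcn UMI therefore cannot be set above free RNA.

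Cells rich in Dcn held smooth muscle transcripts. Their marker sum was below that of the high cells as a whole except in WT 1, and their Myh11 was below it in every library. In the cells with at least 5 Dcn UMIs, the 10 smooth muscle markers summed to 43311, 40549, 36663 and 36931 CPM (scaled to the total of those cells) in WT 1, WT 2, KO 1 and KO 2, against 42163, 43573, 48392 and 45179.6 CPM in all high cells. Myh11 stood at 5181, 4369, 4143 and 4629.7 CPM against 6396, 6797, 8264 and 7994 CPM on the same scale. In the low cells it stood at 3982, 4065, 5855 and 5838 CPM, below the Dcn-rich cells in WT and above them in KO. The 16 fibroblast markers summed to 761, 773, 1488 and 1763 CPM, against 427, 388, 419 and 511 CPM in all high cells, with 6, 6, 3 and 1 of the 16 at 0. The 13 endothelial markers summed to 127, 149, 372 and 377 CPM against 177, 193, 218 and 229 CPM, so they were lower in WT and higher in KO, and their part was not tested. Dpt, one of these markers, had 1, 0, 32 and 76 UMIs there. Whether cells with both programs are single cells or share a droplet was not tested.

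The high cells with and without a Dcn UMI were then compared within each library, a comparison added after the data were seen. In WT 207 genes were higher (1.84%) and 147 lower (1.31%) of 11231 tested, 3.15% in all. In KO 569 were higher (5.07%) and 358 lower (3.19%), 8.25% in all. Of these, 125 were higher and 77 lower in both genotypes and 2 had opposite signs. Leaving out WT 1 or WT 2 lowered the WT count from 354 to 176 or 169, and leaving out KO 1 or KO 2 lowered the KO count from 927 to 460 or 348. Genes named in this comparison were chosen after their values were seen. Myh10 was lower in the cells with Dcn by construction, since they needed less of it to enter: 605, 635, 397 and 369 CPM in the high cells with a Dcn UMI against 923, 983, 667 and 607 CPM in those without of WT 1, WT 2, KO 1 and KO 2. Some genes were themselves higher in high than in low cells (such as Myh11, Syne1, Dmd and Utrn) or lower (such as ribosomal protein genes). For these, Dcn and the lower Myh10 cannot be told apart in this comparison.

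Lum, lumican, a small leucine-rich proteoglycan like decorin, stood at 12.2, 18.5, 172 and 293 CPM in the high cells with a Dcn UMI against 0.233, 1.02, 2.1 and 2.78 CPM in those without. In high cells as a whole Lum had 14, 28, 404 and 724 UMIs in WT 1, WT 2, KO 1 and KO 2, against 1, 0, 18 and 4 in low cells, and its call in WT was lost without WT 2 (3.51, adjusted p = 0.0757). Ranked over cells without Dcn, Lum was called neither in WT (2.46, adjusted p = 0.188) nor in KO (1.04, adjusted p = 0.187). Col14a1 stood at 331, 272, 347 and 250.3 CPM in the high cells with a Dcn UMI against 160.1, 170.1, 120.4 and 118 CPM in those without, and every value with Dcn exceeded every value without. Cxcl12, a chemokine of stromal cells, differed between these cells by 1.07 in WT and 0.77 in KO, Vcam1, an adhesion molecule, by 1.21 in WT and 1.54 in KO and Tmem176b, a membrane protein of antigen-presenting and stromal cells, by 1.52 in WT and 1.98 in KO. Of the 13 tested fibroblast markers 5 were higher in WT and 10 in KO and none was lower (medians 0.90 and 1.79 against −0.0026 and −0.00012 over all tested genes). Of 12 tested modulated smooth muscle genes 5 were higher in WT and 11 in KO. Both lists contain Lum.

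Some muscle genes were higher with Dcn and some lower. Des, desmin, the intermediate filament of muscle, stood at 424, 265, 200.5 and 381 CPM in the high cells with a Dcn UMI against 91.7, 110.3, 163 and 114 CPM in those without. Tnnt2 differed by 0.92 in WT and 1.47 in KO, and in KO its excess in high cells was called with those cells (0.83) and not among cells without Dcn (0.19, adjusted p = 0.245). Myh11 was lower with Dcn (−0.15 in WT and −0.52 in KO), as were Syne1 (−0.33 in WT and −0.33 in KO), Utrn (−0.38 in WT and −0.56 in KO) and, in KO, Dmd (−0.37 ± 0.068, adjusted p = 4.56e-05). In WT Dmd did not pass (−0.085 ± 0.070, adjusted p = 0.697). Of the 19 giant cytoskeletal linkers 1 was higher and 1 lower with Dcn in WT, and 1 was higher and 7 lower in KO. In the falls of Myh11, Syne1, Utrn, Dmd and the linkers, Dcn cannot be told apart from the lower Myh10 of these cells.

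Acan, aggrecan, a large proteoglycan of cartilage that the aortic media also makes, stood at 3.76, 15, 7.08 and 6.2 CPM in the high cells with a Dcn UMI against 67.2, 57.8, 17.6 and 20.9 CPM in those without. It was low in every library's cells with Dcn. Id4, an inhibitor of DNA binding, differed by −1.59 in WT and −1.03 in KO, Tes, a focal adhesion LIM protein, by −0.84 in WT and −1.25 in KO, and Krt18 by −0.98 in WT and −1.21 in KO. Ribosomal protein genes, lower in the high cells, were higher with Dcn, 18 of 30 in each genotype (medians 0.20 and 0.17). A difference between genotypes in this contrast was called for 93 genes (0.828%), 68 more positive in KO (0.605%) and 25 more negative (0.223%).

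Serping1, Mgp and Eln each had a more positive difference with Dcn in KO than in WT. The class with Dcn was not alike in both genotypes. High cells held up to 51 and 33 Dcn UMIs in WT 1 and WT 2, and up to 177 and 193 in KO 1 and KO 2. Of all kept cells with Dcn, 48.6%, 51.5%, 43.1% and 39.2% held a single UMI in WT 1, WT 2, KO 1 and KO 2. The part of this in the genotype differences of this contrast was not tested. Serping1, the C1 inhibitor, differed by 0.44 in WT and 1.21 in KO (0.77 ± 0.13 between genotypes, adjusted p = 0.000138). Mgp, matrix Gla protein, an inhibitor of calcification, stood at 6058, 7747, 3443 and 3178 CPM in the high cells with a Dcn UMI against 5692, 6782, 1888 and 1693 CPM in those without of WT 1, WT 2, KO 1 and KO 2, a log2 difference of 0.18 in WT and 0.94 in KO (0.75 ± 0.066 between genotypes, adjusted p = 7.86e-13). Eln differed by −0.18 in WT and 0.50 in KO (0.68 ± 0.11 between genotypes, adjusted p = 3.33e-05). Eln was called in KO and not in WT (adjusted p = 0.264), where it was lower with Dcn in WT 1 and higher in WT 2.

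**Figure D5:**
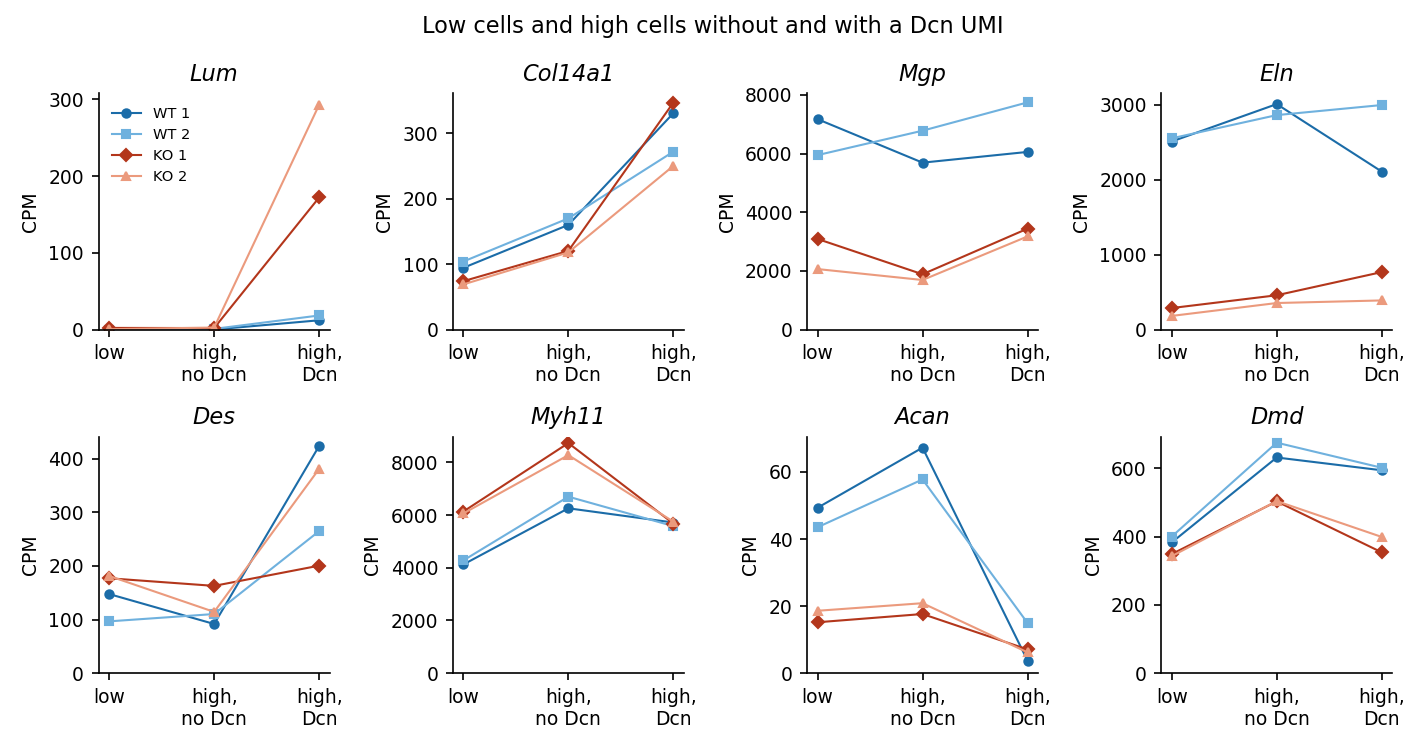
Level in CPM (y axis, from 0) of 8 genes in low cells, in high cells without a Dcn UMI and in high cells with one (x axis), with 1 line per library and no error bars because each point is 1 sum of cells. Lum, Col14a1 and Des are highest with Dcn in all 4 libraries, Mgp is higher with than without Dcn in all 4 libraries, Acan is lowest with Dcn, and Myh11 and Dmd peak in the high cells without Dcn. The cells without Dcn also hold more Myh10 than those with Dcn, by construction.

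Within the high cells, KO and WT differed at 1751 of 12108 tested genes, 793 higher (6.55%) and 958 lower (7.91%) in KO, or 14.5% in all. The 6 largest falls included matrix and stress genes. Col15a1, a basement membrane collagen, stood at 298, 311, 5 and 4.53 CPM in the high cells (WT 1, WT 2, KO 1, KO 2), and Mfap4, an elastic microfibril protein, at 942, 905, 63.2 and 77.1 CPM. Aspn, asporin, differed by −3.15, Fos by −3.12, Nupr1, a stress-induced chromatin protein, by −3.09 and Pcsk5, a proprotein convertase, by −2.87. Eln was lower by −2.68 ± 0.13, while its excess over low cells was larger in KO.

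Rises were led by Ifi27l2a, an interferon-induced gene, at 1.49, 1.5, 43.3 and 33.9 CPM, and by Lum (4.36). Tmem176b stood at 5.04, 7.15, 45 and 49.3 CPM, Itih4, a secreted inter-alpha-trypsin inhibitor chain, at 151, 140.1, 940.3 and 792 CPM, Clec2d, a C-type lectin, at 9.33, 7.78, 42.1 and 39.4 CPM and Plvap, a protein of endothelial diaphragms, at 9.7, 12, 48.5 and 44.4 CPM. Among cells ranked without Dcn, the difference in Lum did not pass (1.70, adjusted p = 0.0864). Of 22 tested interferon-stimulated genes 18 were higher and none lower in KO (median 1.73), and of 16 TGF-beta target genes 10 were lower and none higher (median −1.02). Myh11 was higher in KO high cells (0.27 ± 0.074, adjusted p = 0.0234) and Dmd and Syne1 were lower (−0.47 ± 0.075 and −0.61 ± 0.094). tdTomato, the reporter lost on recombination, had 0, 0, 171 and 103 UMIs in the high cells of WT 1, WT 2, KO 1 and KO 2. In KO it was called higher in high than in low cells, but that rise depended on the ranking. Its log2 difference ran from −0.83 to 2.57 over the settings. With ranks on cells thinned to 3000 UMIs, edgeR called it lower (−0.83, adjusted p = 0.0154). The tamoxifen course of each library is not given, so genotype and course cannot be told apart.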

How the data were processed

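Chromium Next GEM 3′ chemistry v3.1 libraries gave UMI counts per gene and barcode, which the authors deposited without normalization. Per the file headers the tool was Cell Ranger 5.0.1, and per the submitters' processing notes the build was mm10; those notes name Seurat 4.0 too, with no role. The 4 tables hold 14696 barcodes. Kept were cells of at least 3000 UMIs and 500 genes with up to 10% mitochondrial UMIs (2316, 3157, 4162 and 3414 cells with 35044732, 49540931, 59037481 and 50403865 UMIs), where the labels give 2151, 3000, 4031 and 3246 cells after the study's filter. No doublets were removed. Rank ties were broken by a fixed random order.

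Counts were summed per library and class, scaled with TMM and tested in edgeR 4.0.16 under R 4.3.3 by its quasi-likelihood test. A check on simulated data used the spread of the high and low fit (biological coefficient of variation 3.66%). The fit of KO against WT high cells had a larger spread (7.22%), so the check does not cover that test at its own spread. The fit over 8 sums had library as a block, and Dcn and Myh10 were left out of the tests. KO and WT high cells were compared without covariates. P-values were Benjamini-Hochberg adjusted over all tested genes with a threshold of 0.05. Gene spans are those of GENCODE M21 on GRCm38 for 12241 of 12246 tested genes.

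Named genes are the largest shared rises and falls (mean of at least 20 CPM), the smallest p between genotypes, the largest KO differences, up to 3 per list and a fixed set. Some items that the rule names are not reported here. Others are said to be chosen after their values were seen. The members and lists were chosen with earlier results of these data known. Alternatives covered DESeq2 1.42.0, filters, thinning, ranking, the size of the classes and each library left out. Intervals cover counting error only.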

Additional observations from a re-analysis of the deposited data

Results flagged for a closer look

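The difference between high and low cells differed between KO and WT, by the test of that difference itself, for 11 genes named here or in the text. More positive in KO, on the log2 scale, were Ccn5 (1.49), Lgals3 (1.02), Pcolce2 (0.93), Klf2 (0.81), Eln (0.76), Smoc1 (0.69), Mfap4 (0.63) and Ifitm3 (0.49). More negative in KO were Fos (−0.70), Sparcl1 (−0.45) and Myh11 (−0.25). Ccn5, a matricellular protein, stood at 31, 45.5, 5.64 and 11.3 CPM in high against 67.1, 81.7, 5.57 and 5.7 CPM in low cells (WT 1, WT 2, KO 1, KO 2), and Ifitm3, an interferon-induced membrane protein, at 137, 136, 579 and 438 CPM in high against 216, 207, 635 and 482 CPM in low cells. The fall of Ifitm3 within KO was not called without KO 1 (−0.14, adjusted p = 0.237) or without KO 2 (−0.13, adjusted p = 0.245). Mfap4 stood at 942, 905, 63.2 and 77.1 CPM in high against 937, 1259, 52.4 and 54.5 CPM in low cells.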

How the results depend on the processing

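Counts of called genes moved with the ranking, the test and the libraries. In WT, where 3825 genes were called, DESeq2 called 1488, ranks on thinned cells 1832, thinned sums 1351, ranking by Dcn alone 58 and the fit with no replicate block 2376, and leaving out 1 library gave 1656 (without WT 2) to 3937. In KO, where 3321 were called, the same settings gave 1055, 1160, 1280, 387 and 1604, and leaving out 1 library 1968 (without KO 2) to 3496. For the difference between genotypes, with 28 called, DESeq2 gave 9, no low-count filter 60, thinned ranks 13, thinned sums 13, classes of 10% 51, all other cells as the comparison 64, leaving out the deepest 5% of cells 18, leaving out cells with rare markers of other types 15, and ranking over cells without a Dcn UMI 5. Leaving out 1 library gave 27 to 56 (without KO 1), and with no replicate block edgeR called 0 (378 at an unadjusted p under 0.05). Between KO and WT high cells, with 1751 called, DESeq2 gave 911, a minimum of 20 CPM 1160, thinned sums 808 and leaving out 1 library 1203 to 2052. Library numbers of both genotypes did not pair (correlation of deviations 0.0092 over 5767 genes), and the replicate block gave 1568. In the high cells with against without Dcn, leaving out 1 library gave 169 to 387 genes in WT and 348 to 1156 in KO.

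Leaving out cells with UMIs of at least 2 markers of other types removed 2273, 3111, 4061 and 3318 of the 2316, 3157, 4162 and 3414 cells. In the few cells that remained, edgeR called 0 of 1729 genes in WT and in KO and 0 between genotypes (160, 237 and 101 at an unadjusted p under 0.05; DESeq2 was not run on these cells), and 24 between KO and WT high cells. Signs changed there in WT for Bmpr2 (−0.95), Ckb (1.00), Hspa1a (1.05), Hspb1 (0.069), Ifitm3 (0.36), Kmt2a (−1.58), Lmna (0.35), Nox4 (−0.016), Pdlim4 (0.17), Rps2 (0.17), Ryr2 (−0.46), Syne1 (−0.28), Syne2 (−0.40) and eGFP (0.50), in KO for Ecm2 (−0.13), Lmna (0.21), Nox4 (−0.0010) and Tnnt2 (−0.17), and between genotypes for Eln (−0.37) and Sparcl1 (1.25). Ranked by Dcn alone, signs changed in WT for Atp2a2 (−0.064), Bmpr2 (−0.019), Chd4 (−0.044), Col4a5 (−0.051), Col4a6 (−0.026), Ecm2 (−0.00029), Fbn1 (−0.015), Glipr1 (0.080), Hnrnpu (−0.023), Hspb1 (0.0027), Igfbp7 (0.0062), Myl6 (0.0066), Myl9 (0.049), Rgs2 (0.29), Rps2 (0.017), Ski (−0.15), Sphkap (−0.10), Syne1 (−0.041), Tgfbr1 (−0.015), Tgfbr2 (−0.028), Utrn (−0.085) and eGFP (0.0066), in KO for Atp2a2 (−0.083), Bmpr2 (−0.0019), Chd4 (−0.026), Dmd (−0.077), Dst (−0.047), Ecm2 (−0.012), Glipr1 (0.046), Hyou1 (−0.094), Ifitm3 (0.31), Igfbp7 (0.073), Itga8 (−0.071), Lmna (0.029), Macf1 (−0.056), Myh11 (−0.15), Nfkbia (0.10), Nox4 (−0.0080), Ogn (−0.032), Ryr2 (−0.065), Sfrp2 (−0.069), Sphkap (−0.27), Syne1 (−0.0069), Uaca (−0.13) and Utrn (−0.13), and between genotypes for Fos (0.49). Signs also changed for Aimp2 in WT on thinned sums (0.018), Fos between genotypes with classes of 20% (0.11), Lum in WT ranked by Myh10 alone (−0.15) and tdTomato in KO on thinned ranks (−0.83). Of the values with a changed sign, 4 passed the test in the opposite direction: Fos between genotypes, Ifitm3 and Myh11 in KO ranked by Dcn alone, and tdTomato in KO on thinned ranks. Of 3368 values of named genes under alternatives, 3011 kept direction and call, 287 kept the direction and lost the call and 70 changed sign. Depth limits genes with few UMIs, such as Lum and tdTomato in WT.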
